A study of Mus musculus with 20 samples.

Results

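The palmitate response of Ripk3 knockout hepatocytes was read from 10 of the 20 RNA-seq libraries of the study, the 5 untreated and the 5 palmitate-treated Ripk3-/- libraries whose read counts stand together in 1 of the authors' 4 deposited gene tables. That table listed 1316 of the 12871 genes the authors had tested in this comparison (10.2%), namely those past their adjusted p-value of 0.05. The cells were AML-12, an immortalised mouse hepatocyte line derived from a mouse carrying a transforming growth factor alpha transgene. The labels give the knockout cells the genotype RIPK3-/-. Untreated knockout cells formed the control group, and the treated group had received 125 µM palmitate carried on bovine serum albumin for 24 h. The other 10 libraries were wild-type AML-12 cells with and without the same treatment. No albumin-only group is described, and the effects of palmitate and of the albumin therefore cannot be told apart. Neither the number of knockout clones nor the use of separate cultures is stated, so a p-value reflects only how far these libraries varied, which may be technical.

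Palmitate is the most common saturated fatty acid of blood plasma. Inside a hepatocyte it is bound to coenzyme A and then burned in mitochondria and peroxisomes, desaturated, stored in lipid droplets or turned into ketone bodies, and fatty acids are ligands of the nuclear receptor PPAR alpha, which switches on genes of these routes. RIPK3 is a kinase that phosphorylates the pore-forming protein MLKL in necroptosis, a regulated form of cell death, and excess palmitate is used as a model of lipid overload in the liver.

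Ripk3 itself had few reads. There were 6, 8, 2, 5 and 1 reads in untreated knockout libraries 1 to 5 and 10, 7, 3, 7 and 2 in palmitate libraries 1 to 5. Wild-type libraries held 12 to 28 untreated and 19 to 28 with palmitate, so every knockout library lay below every wild-type library. Ripk3 is not in the knockout palmitate table, and in a fit of the 3257 genes with counts in all knockout libraries its log2 fold was 0.43 (SE 0.55, edgeR adjusted p = 1). Library totals were 21.2 to 26.5 M reads, and listed genes took 15.8% to 16.4% of them. Replicates differed by more than sampling noise, with a chi-square per degree of freedom of 2.24 to 13.6 over the listed genes, and each library was counted once. Untreated library 1 was low for short genes (median log2 deviation -0.13 over the 49 listed genes of up to 1000 bases), and untreated library 4 was high for genes of the cell cycle. Of the named genes, 17 were not called without untreated library 1 and 3 (Cd14, Map1lc3b and Slc2a2) were not called without untreated library 4. Other libraries mattered nearly as much: 16 were not called without untreated library 2, and 16 each without palmitate library 3 or 5. Some calls given below as lost without untreated library 1 were lost without other libraries too. Levels below are the authors' normalised counts (reads divided by 1 size factor per library), and FPKM is used only to compare genes of different length. A gene is called when the Benjamini-Hochberg adjusted p of edgeR's quasi-likelihood test, taken over 12871 genes, was under 0.05. The fit held only the listed genes, already chosen by the authors' test of the same counts. Its calls are therefore not independent of their list, and its p-values may be too small. A log2 fold change, also written log2 fold, is palmitate over untreated, and SE is its standard error.

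The response consisted of many moderate rises, fewer large ones and a broad set of small falls. edgeR called 973 genes, 7.56% of those tested, with 567 higher (4.41%) and 406 lower (3.15%). Of the called genes, 75 rose by at least 1 on the log2 scale and 5 fell by as much. The median log2 fold change was 0.43 among called rises, -0.18 among called falls and 0.16 over the 1316 listed genes. Groups did not overlap in 870 listed genes (66.1%). Genes named for the largest changes in fold or level had to have groups apart, so for them this is no added support. Falls were small in ratio but lay in abundant genes: summed normalised counts rose by 208000 over the genes called higher, while the genes called lower changed by -237000. Rises made up 58.3% of the calls, against 43.8% with TMM scaling and 38% with DESeq2 size factors, both computed over the listed genes. Those scalings shifted the fold changes by a median of -0.04 and -0.09 on the log2 scale. They centre on genes chosen as changed, whose median was above 0, and so take up part of the response. Fewer rises and more falls follow from that, so they cannot decide which scaling is right. The counts with TMM and with DESeq2 size factors below carry this limit. The gene lists used below, and their members, were chosen with earlier results of these data known. Counts and motif shares of a list therefore describe it and do not test it. The 7.56%, 4.41% and 3.15% given above are the background for every list count below.

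**Figure D1:**
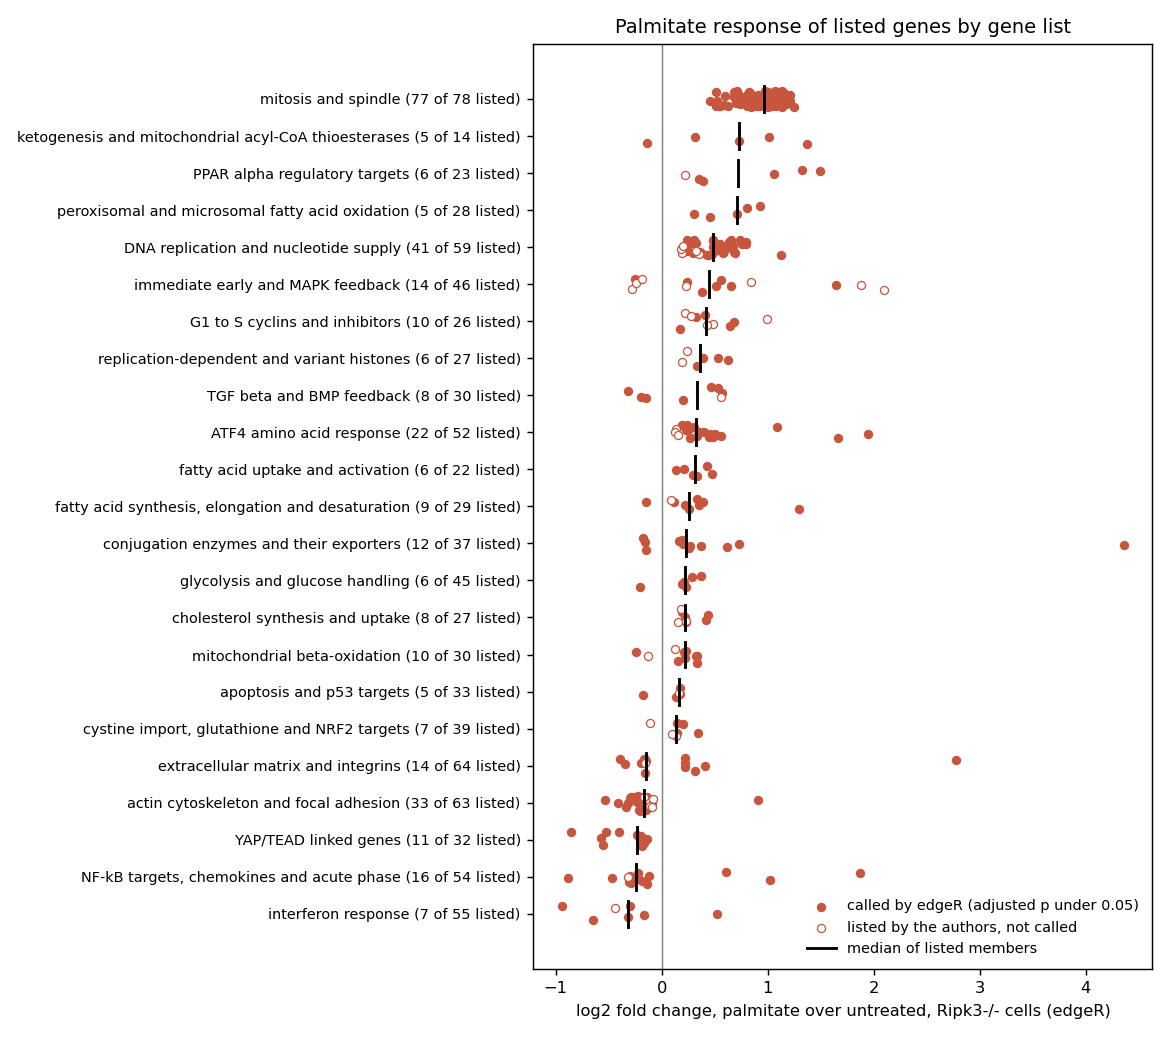
Log2 fold change (horizontal axis, palmitate over untreated Ripk3-/- cells, edgeR) of every listed member of the gene lists with at least 5 listed members. Filled points were called by edgeR, open points were listed by the authors and not called, and the black bar is the median of the listed members. All 77 listed mitosis genes lie above 0, and 32 of 33 listed actin genes lie below 0.

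Genes of fatty acid burning rose, with the largest folds in ketogenesis and acyl-CoA hydrolysis. Of 14 genes of ketogenesis and acyl-CoA hydrolysis, 5 were listed, with 4 called higher and 1 lower and a median of 0.73 over listed members against 0.16 over all listed genes. Acot1 and Acot2 are thioesterases that release free fatty acids from acyl-CoA, in the cytosol and in mitochondria. Acot1 (ENSMUSG00000072949, mm10 chromosome 12, 84009490 to 84018371, plus strand) had normalised counts of 7297, 7673, 7949, 7159 and 7762 in untreated libraries 1 to 5 and 12047, 12644, 12546, 12677 and 12708 in palmitate libraries 1 to 5 (log2 fold 0.73, SE 0.032, edgeR adjusted p = 6.34e-09), and Acot2 counted 514, 456, 515, 425 and 471 and 978, 1048, 967, 873 and 949.6 (log2 fold 1.01, SE 0.065, edgeR adjusted p = 4.06e-07). Neither gene had overlapping groups. They are close paralogues, and how reads matching both were counted is not stated, so the split between them is uncertain. Slc16a1, the transporter that carries ketone bodies and lactate across the plasma membrane, rose by 0.31 on the log2 scale (SE 0.036). Acat1, a thiolase of the same route, was the member that fell, by 0.14 on the log2 scale.

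The mitochondrial oxidation steps moved less, with a median of 0.216 over listed members. Of 30 genes of mitochondrial beta-oxidation, 7 were called higher and 1 lower. Cpt1a, which commits fatty acids to mitochondria by joining them to carnitine, counted 12885, 12884, 12904, 12212 and 12192 untreated and 16369.7, 15812, 15523, 15843 and 15769 with palmitate (log2 fold 0.33, SE 0.028, edgeR adjusted p = 4.59e-06). The rise was a small ratio with no overlap between groups. The carnitine importer Slc22a5 rose by 0.33 on the log2 scale (SE 0.055) and the enoyl-CoA isomerase Eci2 by 0.33 on the log2 scale (SE 0.033). Acadsb, a dehydrogenase of short and branched acyl-CoA, was lower in every palmitate library (log2 fold change -0.24, SE 0.033). A further 5 members with counts in all knockout libraries were not listed and had log2 fold changes of -0.10 to 0.12. Of 28 peroxisomal and microsomal genes 5 were listed and 5 called, every one of them higher, with a median of 0.71. They included Crot, which hands shortened acyl groups from peroxisomes to carnitine (5848, 5805, 5648, 5704 and 5922 untreated, 8154, 8133, 8173, 7726 and 7500.1 with palmitate, log2 fold 0.46, SE 0.030, edgeR adjusted p = 4.40e-07), the omega-hydroxylase Cyp4a12a (0.80, SE 0.10), the peroxisomal thiolase Acaa1b (0.71, SE 0.13) and the peroxisomal thioesterase Acot4 (0.93, SE 0.17). Uptake and activation genes were listed for 6 of 22, with 6 called higher, among them the acyl-CoA synthetases Acsl1 (0.42, SE 0.059) and Acsl4 (0.33, SE 0.037), the acetyl-CoA synthetase Acss2 (0.48, SE 0.10) and the acyl-CoA binding protein Dbi (0.30, SE 0.056). With DESeq2 size factors 4 of these 6 were called.

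Regulatory targets of PPAR alpha also gave large folds. Of 23 such genes 6 were listed and 5 called, all 5 higher, with a median of 0.72 over listed members. Pdk4, a kinase that shuts pyruvate out of the citric acid cycle, counted 126, 131, 149, 83.6 and 108 untreated and 384, 385, 393, 269 and 253 with palmitate (log2 fold 1.49, SE 0.16, edgeR adjusted p = 4.90e-05). Libraries 4 and 5 were the lowest of both groups, and the groups stayed apart. Creb3l3, a liver transcription factor held in the endoplasmic reticulum, counted 28.5, 25.4, 25.2, 20.9 and 17.4 and 56.9, 56.2, 56.3, 59.4 and 69.2 (log2 fold 1.33, SE 0.16, edgeR adjusted p = 8.60e-05), and the mitochondrial carrier Ucp2 counted 351, 345, 345, 354 and 330.4 and 681, 830.4, 708, 666 and 711 (log2 fold 1.06, SE 0.068, edgeR adjusted p = 4.06e-07). Angptl4, a secreted inhibitor of lipoprotein lipase, rose by 0.39 on the log2 scale (SE 0.044). In the promoters of 17 called members of these lists that matched RefSeq (GRCm38.p6, 250 bases before to 50 after the start, 19 promoters of 23 genes looked up) the direct repeat 1 element, the kind of site PPAR alpha binds, was found in 0, against 0.381% of all 32851 promoters. These letters not standing in this window says nothing of the receptor.

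Few genes of lipid storage were called, and more of fatty acid synthesis and desaturation. Of 35 lipid droplet and triglyceride genes 3 were listed and 2 called higher (5.71%, against 4.41% of all genes tested): Plin2, the coat protein of hepatocyte droplets, counted 9338, 9266, 8926, 9559 and 10274 untreated and 12236, 12736, 12695, 12475 and 12687 with palmitate (log2 fold 0.41, SE 0.034, edgeR adjusted p = 4.53e-06), and Hilpda, an inhibitor of droplet lipolysis, rose by 0.36 on the log2 scale (SE 0.074). A further 8 members with counts were unlisted, with log2 fold changes of -0.05 to 0.28. Of 29 genes of fatty acid synthesis, elongation and desaturation, 7 were called higher and 1 lower. Scd1, which turns saturated into monounsaturated fatty acids, counted 1704, 1614, 1659, 1868 and 1456 untreated and 3862, 4424, 4425, 3688 and 3996 with palmitate (log2 fold 1.30, SE 0.064, edgeR adjusted p = 2.28e-08). Its paralogue Scd2 had the largest rise in level of any named gene, with 55211, 52799.9, 55707, 55582 and 49502 untreated and 68269, 69716, 67801, 67654 and 70763 with palmitate (log2 fold 0.36, SE 0.036, edgeR adjusted p = 2.77e-05). Per length Scd2 stayed the more abundant. Its group means were 423 FPKM untreated and 541 FPKM with palmitate, against 14.7 and 36.2 for Scd1. The desaturases of polyunsaturated fatty acids Fads1 (0.33, SE 0.030) and Fads2 (0.39, SE 0.044) rose too. Fatty acid synthase, Fasn, was not listed and had a log2 fold change of 0.00 in the fit of all genes with counts.

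Sterol genes gave 5 called rises of 27 and no called fall. Tm7sf2, a sterol reductase, rose by 0.44 on the log2 scale (SE 0.049). Stard4, a sterol carrier, counted 2902, 2996, 3089, 3565 and 2988 untreated and 3613, 3632, 3849, 3449 and 3659 with palmitate (log2 fold 0.23, SE 0.050, edgeR adjusted p = 0.00998). Untreated library 4 lay within the palmitate range. Insig1, which holds the sterol sensor in the endoplasmic reticulum, rose by 0.22 on the log2 scale (SE 0.043). The count of 5 was 7 without untreated library 4 and 2 with DESeq2 size factors. Of 12 cholesterol efflux and LXR target genes, Lpcat3, which places polyunsaturated chains in phospholipids (0.28, SE 0.031), and the cholesterol exporter Abca1 (0.29, SE 0.073) were called higher and the bile acid receptor gene Nr1h4 (-0.21, SE 0.040) lower. Abca1 was not called without untreated library 1 (edgeR adjusted p = 0.0541).

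**Figure D2:**
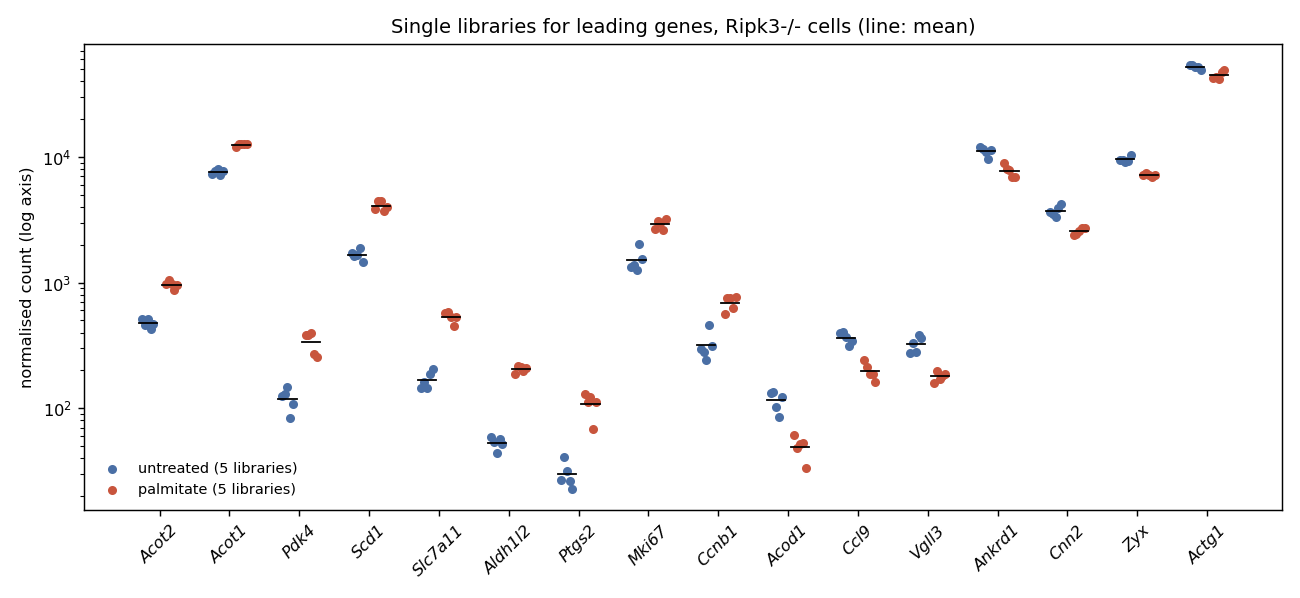
Normalised counts (log axis) of 16 named genes in each of the 5 untreated (blue) and 5 palmitate (red) Ripk3-/- libraries, with a black line at each mean. Groups do not overlap for any of the 16, from the rise of Acot2 to the smaller fall of Actg1, but many of the 16 were named by rules that admit only such genes.

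Genes driven by ATF4, the transcription factor of the integrated stress response, rose while chaperones of the endoplasmic reticulum were not called. Of 52 genes of the ATF4 amino acid response 22 were listed and 19 called, with 19 higher and 0 lower and a median of 0.32 over listed members. Slc7a11, the cystine importer, and Trib3, a pseudokinase induced by ATF4, are shown with their RefSeq promoters (GRCm38.p6). They had the largest folds among called members with exactly 1 promoter entry, lying at the gene's start. Aldh1l2 and Cth had larger folds than Trib3 but no entry. Both promoters hold the C/EBP-ATF element TGATGNAA that ATF4 binds, which played no part in the choice. In each 300-base promoter, read 5′ to 3′ on the gene's strand, capitals mark that element on either strand.
Slc7a11, chr3:50443564-50443863, minus strand: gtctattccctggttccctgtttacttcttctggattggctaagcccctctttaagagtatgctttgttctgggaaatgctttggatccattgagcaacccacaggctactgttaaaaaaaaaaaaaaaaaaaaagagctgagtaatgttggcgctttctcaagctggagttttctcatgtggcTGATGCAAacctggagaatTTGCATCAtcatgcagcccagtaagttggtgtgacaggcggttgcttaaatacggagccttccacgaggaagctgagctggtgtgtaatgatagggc
Trib3, chr2:152344011-152344310, minus strand: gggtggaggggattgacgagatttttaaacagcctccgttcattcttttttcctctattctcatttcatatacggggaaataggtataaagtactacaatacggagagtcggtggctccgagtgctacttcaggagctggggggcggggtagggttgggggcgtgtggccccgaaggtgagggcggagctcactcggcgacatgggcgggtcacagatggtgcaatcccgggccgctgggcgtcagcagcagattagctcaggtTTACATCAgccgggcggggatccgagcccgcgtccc
Slc7a11 held the element in both orientations within a short stretch. It counted 145, 161, 144, 186 and 207 untreated and 567, 579, 536, 453 and 531 with palmitate (log2 fold 1.67, SE 0.11, edgeR adjusted p = 4.06e-07). Trib3 held it just after the start and counted 378, 353, 336, 321 and 397 and 484, 537, 615, 466 and 521 (log2 fold 0.56, SE 0.086, edgeR adjusted p = 0.000803). Over the 20 promoters of the 15 called members that matched, of 19 looked up, 20% held the element, against 3.97% of all 32851 promoters in the RefSeq table, a description of letters and not of binding.

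The largest rise of the group was Aldh1l2, a mitochondrial enzyme of folate metabolism, with 58.9, 53.6, 44, 56.4 and 52.2 untreated and 188, 217, 212, 198 and 211 with palmitate (log2 fold 1.95, SE 0.11, edgeR adjusted p = 7.04e-08). Cth, which makes cysteine from cystathionine, counted 107, 101, 100.1, 122 and 123 and 231, 266, 234, 218 and 228 (log2 fold 1.09, SE 0.10, edgeR adjusted p = 1.23e-05). Both genes lay apart in every library. Ddit3, the transcription factor CHOP, rose by 0.40 on the log2 scale (SE 0.083), and the stress cytokine Gdf15 counted 807, 831, 673, 879.8 and 879 untreated and 1136, 1161, 1157, 1085 and 1016 with palmitate (log2 fold 0.45, SE 0.068, edgeR adjusted p = 0.000647). Asns, asparagine synthetase, was listed and not called (log2 fold 0.14, edgeR adjusted p = 0.0577), although its groups did not overlap. Atf4, Chac1 and Hspa5 stand only in other tables, and Fgf21 is not analysed here. Of 36 chaperone and degradation genes of the endoplasmic reticulum 2 were listed and 0 called by edgeR, with an unadjusted p under 0.05 in 1 of 8 further members with counts, while DESeq2 called 1 higher and 1 lower. Of 19 heat shock genes, only Hspb1 was called (0.28, SE 0.071), 5.26% against 7.56% of all genes tested. It was not called without untreated library 1 (edgeR adjusted p = 0.0639).

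Of 39 genes of cystine import, glutathione and NRF2, a list that leaves Slc7a11 to the ATF4 genes, 4 were called higher and 0 lower: the heme oxygenase Hmox1 (1476, 1478, 1347, 1483 and 1497 untreated, 1788, 1888, 1875, 1759.6 and 1933 with palmitate, log2 fold 0.35, SE 0.040, edgeR adjusted p = 7.42e-05), the glutamate-cysteine ligase subunit Gclc (0.20, SE 0.034), the pentose phosphate enzyme Pgd (0.15, SE 0.037, edgeR adjusted p = 0.0627 without untreated library 1) and the thioredoxin reductase Txnrd1 (0.14, SE 0.035). The 4 were 10.3% of the list, against 7.56% called of all genes tested. With DESeq2 size factors 2 were called higher, and Pgd was not called in most of the fits that left out 1 library. Of 37 conjugation enzymes and exporters 9 were called higher and 3 lower, and 5 and 3 with DESeq2 size factors. Gsta1, a glutathione S-transferase, had the largest fold of the table, with 2.68, 12.7, 0.935, 1.04 and 1.09 untreated and 97.5, 77.2, 58.9, 62.7 and 101 with palmitate (log2 fold 4.36, SE 0.41, edgeR adjusted p = 1.45e-05). Untreated library 2 held most of the untreated reads. Leaving out each library in turn gave 4.11 to 5.63, and reads of its near-identical neighbour Gsta2 could be counted to it, so the size is uncertain. Abcc2, the canalicular exporter of conjugates, counted 3499, 3261, 3369, 3507 and 2819.5 and 4959, 5116, 5283, 4853 and 4992 (log2 fold 0.61, SE 0.050, edgeR adjusted p = 4.07e-06). The glucuronosyltransferases Ugt2b34 (0.73, SE 0.068) and Ugt2b36 (0.37, SE 0.095) were higher, Ugt2b36 not being called without untreated library 1 (edgeR adjusted p = 0.0717).

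Genes of mitosis moved as a block, in a list chosen, like the others, with earlier results of these data known. Of 78 mitosis and spindle genes 77 were listed and all 77 were called higher, against 4.41% of all genes tested, with a median of 0.97. Groups were apart in 74 of the 77, against 66.1% of all listed genes. Their summed normalised counts were 24309, 22868, 21046, 31862 and 25778 in untreated libraries 1 to 5 and 40476, 48811, 45680, 44066 and 50434 in palmitate libraries 1 to 5, a ratio of means of 1.82. Untreated library 4 was the highest control and still lay below every palmitate library. The count was 77 without untreated library 4, 75 without untreated library 1 and 75 with DESeq2 size factors. In bulk RNA, more cycling cells and more of these transcripts per cycling cell cannot be told apart. Mki67, the marker of cycling cells, counted 1319, 1381, 1255, 2028 and 1542 untreated and 2684, 3114, 2988, 2642 and 3184 with palmitate (log2 fold 0.96, SE 0.11, edgeR adjusted p = 5.99e-05). Ccnb1, the cyclin of mitotic entry, counted 297, 282, 241, 457 and 315 and 557, 747, 747, 625 and 767 (log2 fold 1.12, SE 0.14, edgeR adjusted p = 0.000167), and its kinase Cdk1 counted 443, 415, 409.6, 646 and 564 and 793, 977, 933, 781 and 932 (log2 fold 0.84, SE 0.12, edgeR adjusted p = 0.000344).

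The members with the largest folds were Kif2c, a kinesin that takes microtubule ends apart, Hmmr and Nusap1, which build the spindle, and Cenpf, a kinetochore protein. Late cell cycle genes are known for a promoter element called CHR (TTTGAA), bound by the MuvB complex, often beside CCAAT boxes bound by NF-Y. RefSeq promoters (GRCm38.p6, 5′ to 3′ on the gene's strand) of Hmmr, Cenpf and Nusap1 are given so that the elements can be seen, with CHR and CCAAT letters on either strand in capitals.
Hmmr, chr11:40733388-40733687, minus strand: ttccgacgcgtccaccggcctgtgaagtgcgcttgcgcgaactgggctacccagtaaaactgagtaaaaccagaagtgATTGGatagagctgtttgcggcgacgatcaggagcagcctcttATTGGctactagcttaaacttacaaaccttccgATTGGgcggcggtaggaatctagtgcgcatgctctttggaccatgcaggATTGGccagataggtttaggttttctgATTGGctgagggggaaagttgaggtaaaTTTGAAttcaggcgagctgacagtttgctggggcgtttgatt
Cenpf, chr1:189688037-189688336, minus strand: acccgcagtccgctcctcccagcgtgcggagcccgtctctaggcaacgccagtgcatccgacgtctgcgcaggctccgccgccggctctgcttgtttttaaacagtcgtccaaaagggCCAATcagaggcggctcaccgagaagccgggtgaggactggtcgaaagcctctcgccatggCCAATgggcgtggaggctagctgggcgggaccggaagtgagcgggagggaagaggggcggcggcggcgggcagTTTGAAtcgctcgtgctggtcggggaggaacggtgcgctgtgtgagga
Nusap1, chr2:119618048-119618347, plus strand: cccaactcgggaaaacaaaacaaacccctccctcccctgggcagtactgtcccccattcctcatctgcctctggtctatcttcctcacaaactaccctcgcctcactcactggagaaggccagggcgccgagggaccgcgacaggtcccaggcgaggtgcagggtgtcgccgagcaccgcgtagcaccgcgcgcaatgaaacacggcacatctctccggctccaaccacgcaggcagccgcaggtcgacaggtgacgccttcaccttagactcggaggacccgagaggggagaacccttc
Hmmr and Cenpf held a CHR next to the start with CCAAT boxes upstream, and Nusap1 held neither in this window. Kif2c counted 96.3, 77, 92.6, 129 and 115 untreated and 202, 267, 237, 227 and 273 with palmitate (log2 fold 1.25, SE 0.14, edgeR adjusted p = 4.90e-05). Hmmr counted 236, 270.1, 204, 341 and 271 and 528, 692, 629, 525 and 677 (log2 fold 1.21, SE 0.12, edgeR adjusted p = 3.08e-05). Cenpf rose by 1.20 on the log2 scale (SE 0.091) and Nusap1 by 1.21 on the log2 scale (SE 0.094). No library of either treatment overlapped the other for these genes. Of 77 called mitosis genes 64 matched the RefSeq table with 69 promoters. A CHR stood in 69.6% of these promoters and a CCAAT box in 75.4%, against 17.9% and 37.4% of all 32851 promoters, and both together stood in 56.5% against 6.95%. All promoters of the table, those of silent and noncoding genes too, form that background.

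DNA replication genes rose less and their groups came closer together. Of 59 genes 41 were listed and 36 called, with 36 higher and 0 lower and a median of 0.48. Summed counts were 29749, 27799, 26710, 35964 and 31291 untreated and 35903, 40203, 38760, 38462 and 41303 with palmitate, so untreated library 4 just passed the lowest palmitate library. The count of called genes was 40 without untreated library 4 and 23 without untreated library 1. Fancd2, of interstrand crosslink repair, counted 156, 122, 113, 178 and 119.6 and 266, 295, 325, 298 and 321 (log2 fold 1.13, SE 0.12, edgeR adjusted p = 4.90e-05). The recombination factor Rad51ap1 rose by 0.80 on the log2 scale (SE 0.15) and the thymidine kinase Tk1 by 0.76 on the log2 scale (SE 0.062). Mcm5, a subunit of the replicative helicase, counted 786, 621, 621, 1061 and 839 untreated and 1003, 1180.4, 1115, 1132 and 1288 with palmitate (log2 fold 0.55, SE 0.12, edgeR adjusted p = 0.0115), with untreated library 4 inside the palmitate range. In the 33 promoters of 28 matched genes, of 36 looked up, the E2F element TTTNNCGC stood in 36.4% and a CHR in 12.1%, while the mitosis promoters gave 20.3% and 69.6%. Over all promoters the E2F element stood in 5.17%.

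Of 26 G1 to S genes 5 were called higher, and 8 without untreated library 4. The atypical repressors E2f7 (0.68, SE 0.12) and E2f8 (0.64, SE 0.15), the pocket protein gene Rbl1 (0.41, SE 0.086) and cyclin D1, Ccnd1 (0.33, SE 0.062), were among them. Ccnd1 counted 8695, 8195, 7668, 9912 and 8232 untreated and 9853, 11229, 10539.6, 10243 and 11747 with palmitate, and untreated library 4 overlapped the palmitate libraries. Of 27 histone and chromatin genes 4 were called higher. These were the linker histones Hist1h1c (0.63, SE 0.12) and H1f0 (0.33, SE 0.053), the variant H2afz (0.39, SE 0.062) and the DNA-bending protein Hmgb2 (0.53, SE 0.060), so replication-dependent core histones are not among them.

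**Figure D3:**
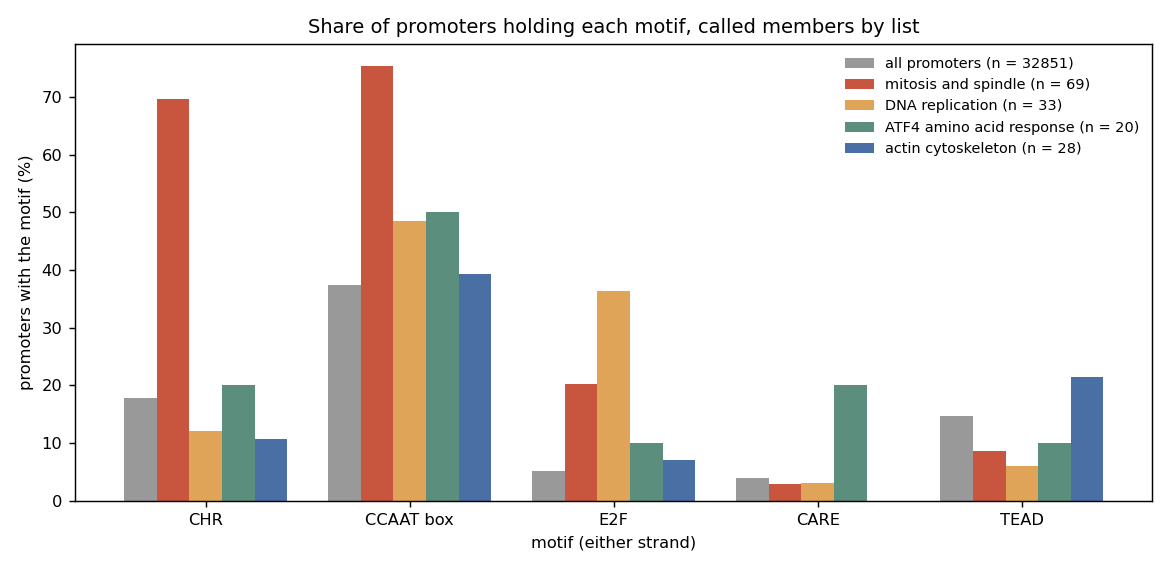
Share of RefSeq promoters (vertical axis, %) that hold each motif on either strand, for all 32851 promoters and for the promoters of called members of 4 lists. CHR and CCAAT boxes are most frequent in mitosis promoters, the E2F element in DNA replication promoters and the CARE element in ATF4 promoters.

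Many falls lay in genes of actin and adhesion. Of 63 genes of the actin cytoskeleton and focal adhesion 33 were listed, with 1 called higher and 27 lower, against 3.15% of all genes tested called lower, and a median of -0.16 over listed members. Their summed counts were 459418, 452968, 442788, 454370 and 457884 in untreated libraries and 392579, 395061, 390581, 400656 and 406387 with palmitate, a ratio of means of 0.876 with no overlap. Actg1, cytoplasmic gamma actin, had the largest fall in level among called genes with groups apart, from 53672, 53394, 51596, 52212 and 49211 untreated to 42682, 43339.8, 42024, 47389.8 and 48786 with palmitate (log2 fold -0.21, SE 0.044, edgeR adjusted p = 0.00626). Palmitate libraries 4 and 5 came close to the lowest untreated library. Cnn2, a calponin that binds actin filaments, counted 3621, 3528, 3331, 3902 and 4201 and 2406, 2414, 2555, 2738 and 2708 (log2 fold -0.53, SE 0.058, edgeR adjusted p = 4.90e-05), and Zyx, zyxin of focal adhesions, counted 9434, 9502, 9143, 9350.1 and 10288 and 7207, 7484, 7125, 6875 and 7153 (log2 fold -0.41, SE 0.034, edgeR adjusted p = 4.07e-06). Both were apart in all libraries. The filamin Flna (-0.15, SE 0.026), nonmuscle myosin Myh9 (-0.24, SE 0.032), tropomyosin Tpm1 (-0.32, SE 0.036) and the transgelin Tagln2 (-0.26, SE 0.044) were among the 8 largest such falls in level, as was the kinase scaffold Akap12 (-0.28, SE 0.037). The member that rose was Diaph3, a formin that also acts in cell division (139, 114, 101, 167 and 116 untreated, 232, 235, 248, 221 and 258 with palmitate, log2 fold 0.91, SE 0.12, edgeR adjusted p = 0.000284). Capg, an actin-capping protein that is not a member of this list, rose more (log2 fold 1.91, SE 0.27). Actb was listed and not called (-0.12, edgeR adjusted p = 0.120).

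Genes linked to YAP and TEAD, which answer to cell tension, fell. Of 32 genes 11 were listed and 11 called, with 0 higher and a median of -0.23. Vgll3, a TEAD cofactor, counted 275, 329.6, 279.6, 382 and 359.8 untreated and 159, 199, 171, 180.4 and 186 with palmitate (log2 fold -0.86, SE 0.11, edgeR adjusted p = 0.000154). Csrp1, a LIM protein of the cytoskeleton, counted 8355, 7709.9, 7266, 7126 and 8363 and 5424, 4940.1, 4983, 5438 and 5382 (log2 fold -0.57, SE 0.048, edgeR adjusted p = 5.23e-06), and Ankrd1, a nuclear ankyrin-repeat protein, counted 11953, 11649.7, 11012, 9702 and 11248 and 8925, 8021, 7868, 6958 and 6863 (log2 fold -0.52, SE 0.068, edgeR adjusted p = 0.00019). None of the 3 had overlapping groups. Endothelin, Edn1, fell by 0.55 on the log2 scale (SE 0.14, edgeR adjusted p = 0.0258). A further 7 members with counts were unlisted at -0.16 to 0.01. The count of 11 was 7 without untreated library 1, Edn1 being 1 of those lost (edgeR adjusted p = 0.0739). In 28 promoters of called actin genes (24 of 28 genes matched) the TEAD element GGAATG stood in 21.4%, against 14.7% of all promoters, and the CArG box bound by serum response factor in 10.7% against 1.63%, which is 3 promoters.

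Signalling and matrix genes were mixed. Of 30 TGF beta and BMP genes 4 were called higher and 3 lower, 2 and 3 without untreated library 1, and 1 and 3 with DESeq2 size factors. Ltbp1, which binds latent TGF beta in the matrix, counted 886, 839, 861, 879 and 851 untreated and 1181, 1318, 1326, 1219.6 and 1362 with palmitate (log2 fold 0.57, SE 0.046, edgeR adjusted p = 4.07e-06), and the activin subunit genes went in opposite directions, Inhba up (0.46, SE 0.12) and Inhbb down (-0.32, SE 0.048). The BMP target Id1 rose by 0.53 on the log2 scale (SE 0.15) with untreated library 4 inside the palmitate range, and neither Id1 (edgeR adjusted p = 0.146) nor Inhba (0.0587) was called without untreated library 1. Both calls were also lost in most of the other fits that left out 1 library. Of 64 matrix and integrin genes 6 were called higher and 7 lower, and 3 and 8 with DESeq2 size factors. Mmp13, a collagenase, counted 6.24, 26.3, 14, 18.8 and 16.3 untreated and 150.0, 109, 112, 74.8 and 111 with palmitate (log2 fold 2.78, SE 0.26, edgeR adjusted p = 1.45e-05). Integrin Itgb3 (-0.39, SE 0.051) and the collagen crosslinking enzyme Loxl2 (-0.35, SE 0.070) fell.

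**Figure D4:**
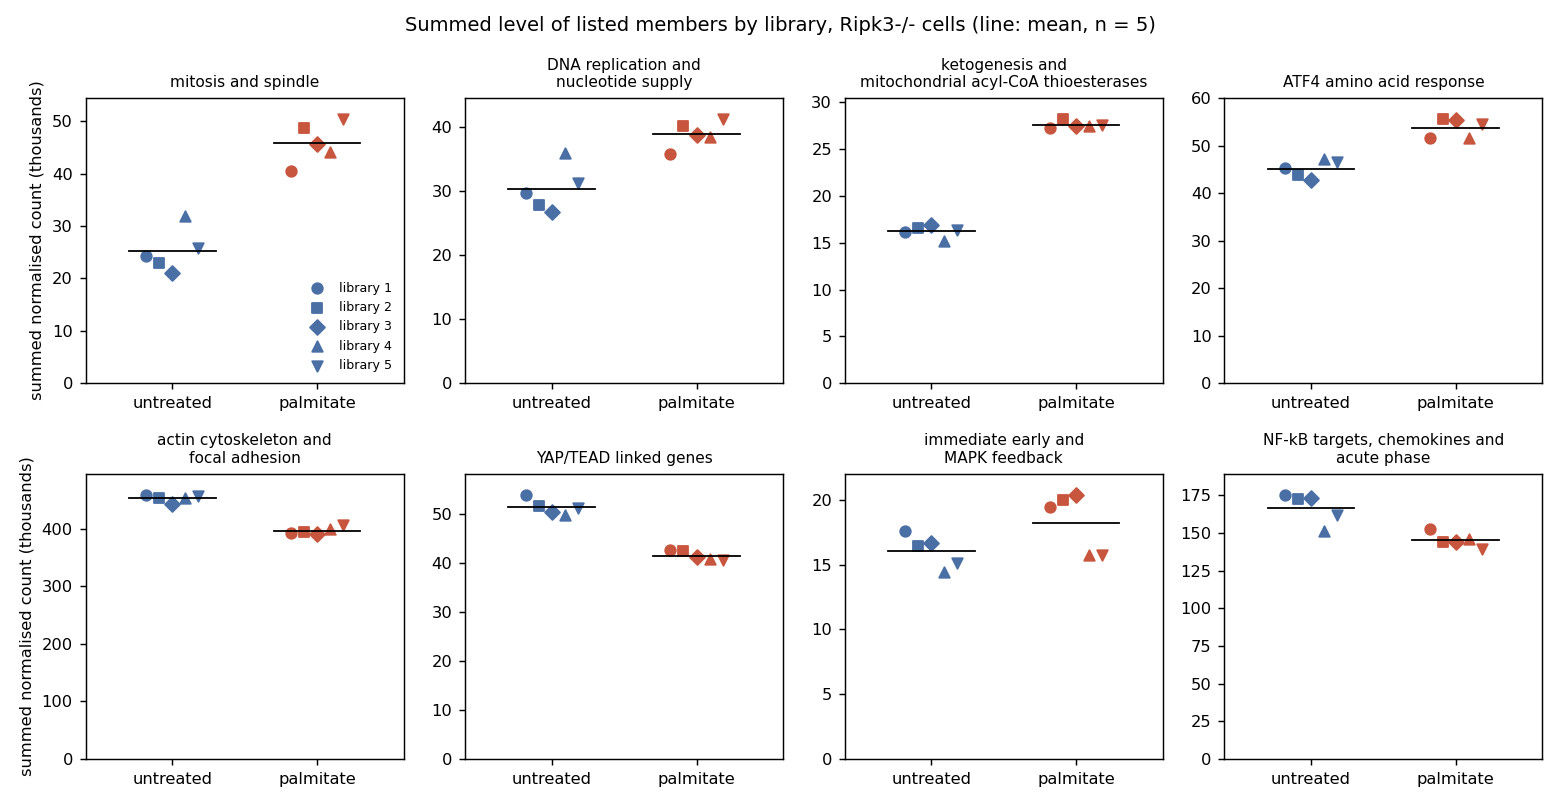
Summed normalised counts (vertical axes, starting at 0) of the listed members of 8 gene lists in each Ripk3-/- library, with marker shape giving the library number and a line at the mean of 5. Mitosis sums lie between 21046 and 31862 untreated and between 40476 and 50434 with palmitate, and immediate early sums are lowest in libraries 4 and 5 of both groups.

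Inflammatory genes were called lower more often than higher. Of 54 NF-kB targets, chemokines and acute phase genes 3 were called higher and 12 lower, with a median of -0.24 over listed members. A further 10 unlisted members with counts had -0.29 to 0.54 (median -0.06), with an unadjusted edgeR p under 0.05 in 6. The rises were Ptgs2, the inducible cyclooxygenase (26.8, 41, 31.8, 26.1 and 22.8 untreated, 130.3, 112, 122, 68.2 and 112 with palmitate, log2 fold 1.87, SE 0.20, edgeR adjusted p = 3.86e-05), the chemokine Cxcl10 (34.8, 17.6, 24.3, 17.8 and 22.8 and 42.7, 54.2, 45.7, 52.8 and 46.5, log2 fold 1.03, SE 0.19, edgeR adjusted p = 0.00327) and the alarmin Il33 (0.61, SE 0.10). Ccl9, a macrophage chemokine, counted 395, 406, 367, 310.3 and 346 untreated and 242, 212, 186, 187 and 162 with palmitate (log2 fold -0.89, SE 0.11, edgeR adjusted p = 0.000137). It is known mainly from the mouse. Acod1, which makes itaconate, had the largest fall of the named genes, from 132, 136, 103, 84.6 and 122 to 61.3, 48.1, 51.9, 52.8 and 33.6 (log2 fold -1.22, SE 0.17, edgeR adjusted p = 0.000311). Ppbp, a platelet chemokine, fell (-0.65, SE 0.17) and was not called without untreated library 1 (edgeR adjusted p = 0.0643). Acod1 and Ppbp are not members of the list counted above. Of 55 interferon genes 1 was called higher and 5 lower, 10.9% of the list against 7.56% of all genes tested. The GTPases Gbp2 (234, 239.9, 204, 161 and 209.8 untreated, 113, 101, 107, 117 and 108 with palmitate, log2 fold -0.94, SE 0.12, edgeR adjusted p = 0.00011) and Gbp4 (-0.65, SE 0.13) and the immunoproteasome subunit Psmb10 (-0.32, SE 0.061) fell, and Ifit3 rose (0.52, SE 0.14) but was not called without untreated library 1. Its call was also lost in most of the other fits that left out 1 library.

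Few genes of cell death were listed. Of 24 necroptosis and death receptor genes 1 was listed, the TNF receptor Tnfrsf1b, with 432, 460.3, 438, 408 and 442 untreated and 365, 408, 325, 379 and 352 with palmitate (log2 fold -0.25, SE 0.073, edgeR adjusted p = 0.0486), overlapping groups and an edgeR adjusted p of 0.0929 without untreated library 1. Tnfrsf1b made up 4.17% of the list, against 7.56% called of all genes tested, and was not called in most of the fits that left out 1 library. A further 6 members with counts, Ripk3 among them, were unlisted at -0.06 to 0.43, and Mlkl, Ripk1, Casp8 and Cflar are not analysed here. Of 33 apoptosis and p53 genes 3 were called higher and 1 lower, 12.1% of the list against 7.56% of all genes tested. The p53 targets Ccng1 (0.17, SE 0.036), Mdm2 (0.17, SE 0.042) and Zmat3 (0.13, SE 0.036) rose and the death agonist Bid fell (-0.18, SE 0.033). The 3 rises were 1 without untreated library 1 and 0 with DESeq2 size factors, and Zmat3 was not called in most of the fits that left out 1 library.

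Calls among immediate early genes varied with the setting. Of 46 genes 14 were listed, with 6 called higher and 1 lower. Without untreated library 1 the counts were 6 and 0, without untreated library 4, with TMM and with DESeq2 size factors 5 and 4, with the replicate block 9 and 4, and with DESeq2's own test 10 and 3. The early response gene Ier2 counted 1165, 1216, 1154, 1083 and 1155 untreated and 1705, 1945, 1910.2, 1396 and 1265 with palmitate (log2 fold 0.51, SE 0.10, edgeR adjusted p = 0.00451), and Areg, amphiregulin, a ligand of the EGF receptor, counted 9.81, 6.83, 15.9, 10.4 and 17.4 and 26.3, 45.1, 44.9, 38.5 and 33.6 (log2 fold 1.65, SE 0.25, edgeR adjusted p = 0.000645). The MAP kinase phosphatases Dusp4 (0.56, SE 0.10) and Dusp6 (0.38, SE 0.047) and the transcription factor Klf4 (0.66, SE 0.12) rose. The AP-1 subunit Junb was also called higher (0.24, SE 0.064) and Fosl2 lower (-0.25, SE 0.062), both with overlapping groups. Fos, Fosb and Zfp36, named here after their values were seen, were not called. Fos and Fosb had larger folds than any called member, and Zfp36 a larger fold than all called members but Areg. Fos, a subunit of the AP-1 factor, counted 252, 218, 226, 81.5 and 59.8 in untreated libraries 1 to 5 and 774, 879, 1047, 219 and 189.9 in palmitate libraries 1 to 5 (log2 fold 1.88, SE 0.59, edgeR adjusted p = 0.117). Libraries 4 and 5 were the lowest of each treatment, and palmitate was above untreated within libraries 1 to 3 and within libraries 4 and 5. Fosb counted 77.6, 51.7, 72.9, 16.7 and 14.1 against 271, 267, 384, 51.7 and 39.6 (2.09, SE 0.71, edgeR adjusted p = 0.161), with the same low libraries. Zfp36, which destabilises cytokine mRNAs, gave 0.84 (SE 0.24, edgeR adjusted p = 0.0700). The labels name no batch. With a term for libraries 1 to 3 against 4 and 5, chosen after these values were seen, 9 members were called higher and 4 lower, as with the replicate block, Fos at 1.84 (edgeR adjusted p = 6.92e-08), Fosb at 2.08 (1.55e-06) and Zfp36 at 0.81 (1.34e-05). The term was read from the values of these same genes, so these p-values cannot count as support.

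Several of the largest folds belong to none of these groups. Sprr1a, a small proline-rich protein, counted 19.6, 25.4, 23.4, 18.8 and 33.7 untreated and 94.2, 128, 119, 91.3 and 101 with palmitate (log2 fold 2.15, SE 0.17, edgeR adjusted p = 3.81e-06). Atp2a3, a calcium pump of the endoplasmic reticulum (10.7, 6.83, 8.42, 15.7 and 2.17 and 38.3, 50.1, 42.2, 28.6 and 45.5, log2 fold 2.20, SE 0.29, edgeR adjusted p = 0.000232) and Capg, an actin-capping protein (6.24, 5.85, 17.8, 6.27 and 8.7 and 31.8, 38.1, 39.6, 29.7 and 31.7, log2 fold 1.91, SE 0.27, edgeR adjusted p = 0.000388), rose from low counts. Falls included Mylk2, a myosin light chain kinase (30.3, 31.2, 25.2, 27.2 and 28.3 and 19.7, 11, 11.4, 14.3 and 9.89, log2 fold -1.11, SE 0.21, edgeR adjusted p = 0.00366), the protease Prss23 (351, 338, 308, 323 and 349 and 207, 219.6, 205, 190.3 and 203, log2 fold -0.70, SE 0.077, edgeR adjusted p = 4.90e-05) and the noncoding E230016K23Rik (-0.63, SE 0.14). The antisense transcript Gm15867 fell (-1.01, SE 0.26) but was not called without untreated library 1 (edgeR adjusted p = 0.0563), and since the strand setting of the counting is not given in the sources used here its reads cannot be told from those of the other strand. Among the largest rises in level was Aldh1a1, a retinaldehyde dehydrogenase (8231, 7905, 7996, 8439 and 9088 untreated, 11433, 12252, 12289.7, 11287 and 11699 with palmitate, log2 fold 0.50, SE 0.039, edgeR adjusted p = 3.39e-06).

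Of 74 nuclear genes of the respiratory chain and 81 cytosolic ribosomal protein genes 0 were listed and so 0 could be called. In the fit of all genes with counts, 38 of the first had log2 fold changes of -0.13 to 0.19, with an unadjusted edgeR p under 0.05 in 2, and 42 of the second had -0.05 to 0.28, with 0. Glycolysis and glucose genes gave 5 called rises and 1 fall of 45, with 1 rise left under DESeq2 size factors. They included pyruvate kinase Pkm (24174, 21572, 21989, 24573 and 24448 untreated, 26451, 29790.1, 30479, 26396 and 29383 with palmitate, log2 fold 0.29, SE 0.050, edgeR adjusted p = 0.00202), Aldoc (0.37, SE 0.090), Pck2 (0.21, SE 0.036) and the glucose transporter Slc2a2 (0.23, SE 0.066, not called without untreated library 1 or without untreated library 4). Lysosome and autophagy genes gave 1 rise, the sialidase Neu1 (0.13, SE 0.035), and 2 falls, the mitophagy receptor Bnip3l (-0.14, SE 0.029) and Map1lc3b (-0.10, SE 0.030), of 46. Calls made up 6.52% of that list, against 7.56% of all genes tested. Of 19 clock genes the repressor Bhlhe41 fell (-0.27, SE 0.065), which is 5.26% of the list called. Neither Neu1 (edgeR adjusted p = 0.065) nor Bhlhe41 (0.0565) was called without untreated library 1. Slc2a2 and Neu1 were not called in most of the fits that left out 1 library. Map1lc3b, at an edgeR adjusted p of 0.0455, was not called in 9 of the 10 fits that left out 1 library, and 0 rises of this list were called with TMM, with DESeq2 size factors or with the replicate block.

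Levels of cell type markers could be read only for genes that some deposited table lists, so a marker without counts here was not analysed and need not be silent. Alb, albumin, the defining secreted protein of hepatocytes, counted 156, 207, 179, 162 and 159 untreated and 244, 337, 320.1, 291 and 291 with palmitate (log2 fold 0.78, SE 0.11, edgeR adjusted p = 0.000311). Per length its group means were 3.16 FPKM untreated and 5.43 FPKM with palmitate. The 6 of 12 hepatocyte markers with counts in all knockout libraries (Alb, Serpina1a, Fgb, Trf, Ambp and Apoh) summed to 206 to 231 FPKM untreated and 207 to 233 with palmitate. Of 8 cholangiocyte markers, 4 had counts, among them Krt19, Sox9 and Spp1, and they summed to 1050 to 1150 and 1190 to 1260 FPKM. Most of this was osteopontin, Spp1, at group means of 794 FPKM untreated and 928 FPKM with palmitate, far above Alb per length (32727, 30161, 28563, 30927 and 30045 untreated, 36117, 37292, 36043, 34064 and 34772 with palmitate, log2 fold 0.23, SE 0.037, edgeR adjusted p = 0.00132). The 3 others had log2 fold changes of -0.08 to 0.13 (median -0.08), with an unadjusted edgeR p under 0.05 in 2. Stellate markers had counts for Des and Vim, of 9, at 182 to 204 and 175 to 188 FPKM, with 0 called. Macrophage markers had counts for Cd14 (0.19, SE 0.053) and Cd68 (0.77, SE 0.19), of 8, at 153 to 183 and 172 to 207 FPKM, both called. Cd68 was not called without untreated library 1 (edgeR adjusted p = 0.0678), Cd14 was not called with TMM or in 7 of the 10 fits that left out 1 library, and neither was called with DESeq2 size factors. Endothelial markers had counts for 0 of 8. What part, if any, other cell types have in the changes above was not tested.

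Beside wild-type cells, tested in their own 10 libraries, 984 genes were also listed for palmitate, which is 74.8% of the 1316 knockout genes and 45.3% of the 2174 wild-type genes. The mitosis genes were listed there in 77 of 77 cases, the DNA replication genes in 41 of 41, the ATF4 genes in 22 of 22, the actin genes in 26 of 33 and the YAP and TEAD genes in 9 of 11. For Slc7a11 the palmitate log2 fold change was 1.67 (SE 0.11) in knockout and 2.30 (SE 0.09) in wild-type cells, and for Ptgs2 it was 1.87 (SE 0.20) and 2.78 (SE 0.16). Acot2 gave 1.01 (SE 0.07) and 0.72 (SE 0.06), and Gbp2 -0.94 (SE 0.12) and -0.55 (SE 0.10). The test of the difference between genotypes entered 2993 genes with counts in all 20 libraries, 1052 of them from the knockout table (79.9% of it). A gene had such counts only if the authors listed it in both palmitate comparisons or in both comparisons of knockout with wild-type cells. Of the 1052, 984 were listed for palmitate in wild-type cells too. Genes listed for palmitate in knockout cells alone were thus mostly left out. The calls that follow hold for this selected set and not for all genes. In it edgeR called 0. An unadjusted edgeR p under 0.05 was reached by 172, where chance gives about 1 in 20 genes, with 98 of those among the 1052. DESeq2 called 6 and limma 0. Without untreated knockout library 1 edgeR called 2. Slc7a11 had a difference of -0.64 (SE 0.15, edgeR adjusted p = 0.209) and Ptgs2 of -0.90 (SE 0.28, edgeR adjusted p = 0.567). DESeq2 called the Slc7a11 difference (-0.64, DESeq2 adjusted p = 0.0186), and edgeR called Dusp4 (-0.53, edgeR adjusted p = 0.0157) once the replicate number was a block. Mylk2 and the other genes without counts in all 20 libraries here could not enter this test.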

How the data were processed

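RNA was sequenced from wild-type and Ripk3-/- AML-12 cells, untreated or given palmitate, with 5 libraries in each of 4 groups. The submitters' processing notes name FastQC 0.11.9, HISAT2, featureCounts 1.5.0-p3 and DESeq2 with build mm10. Other versions, the gene annotation and how strand was handled in counting were not given in the sources used here. Per the file headers, each of the 4 gene tables deposited by the authors holds read counts, normalised counts and FPKM per library, with a log2 fold change, p-values and gene length for each gene. The deposited normalised counts are a signal made by dividing read counts by 1 factor per library, as the ratio of the columns shows. The deposited p-values were used only to work out that the authors tested 12871 genes. No column belonged to another sample (0 such columns), and 8 tables of enriched terms were not used.

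The quasi-likelihood test of edgeR 4.0.16 (limma 3.58.1, R 4.3.3) was run on the deposited counts with the authors' size factors and treatment as the only term. Unlisted genes counted as not called, and the adjusted p was taken over 12871 genes. The difference between genotypes was the interaction term over 2993 genes, a set that depended on which genes the authors had listed. Alternatives were DESeq2 1.42.0, limma-voom, TMM and DESeq2 size factors, a mean of at least 10 normalised counts, all 3257 genes with counts, a replicate block and leaving out each library. The scripts were tested on simulated data. Depth was 21.2 to 26.5 M reads per library, and the spread between 5 libraries sets the precision.

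Replicate numbers were checked for pairing: the correlations of deviations between same-numbered libraries were 0.168, -0.1, 0.176, 0.112 and 0.286. Mean correlations with the other numbers were -0.0384, 0.00986, -0.0409, -0.0229 and -0.0698. Only libraries 1 and 5 correlated best with their own number, so these values do not settle whether the numbers pair the samples.

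Named genes were those called, at a mean of at least 20 normalised counts and with groups apart: the 10 largest rises and 10 largest falls in fold, the 8 largest of each in level, up to 4 called members of each list by fold at any level, and a fixed list of looked-up genes. Dusp6, Fos, Fosb, Zfp36, Junb, Fosl2, Acat1, Actb and Fasn were added after their values were seen. Some genes that the rule names are not reported here. The members and lists were chosen with earlier results of these data known. The E2F, TEAD, CArG and CCAAT motifs were added later than the others. Symbols were taken by gene ID from the reference table, since 11 of 1316 deposited symbols were older ones or belonged to another gene. Coordinates are mm10. Promoters are from RefSeq (GRCm38.p6), and the 32851 promoters of the background were not matched for composition. The table's entry for Kif2c lies inside the gene, so it is counted and not shown.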

Additional observations from a re-analysis of the deposited data

Results flagged for a closer look

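In the 125 named genes, 13 of 250 groups of 5 libraries (5.2%) held 1 library far from the other 4, where chance gives about 1 in 20 groups. Untreated library 4 held 4 of them. It was high for the cell cycle genes E2f8 (312 normalised counts, others 180.0 to 193), Hmgb2 (901, others 732 to 778) and Rbl1 (481, others 358 to 379) and for the sterol carrier Stard4 (3565, others 2902 to 3089). Palmitate library 1 also held 4, being low for Acot1 (12047, others 12546 to 12708), Cyp4a12a (355, others 425 to 442) and Map1lc3b (5004, others 5298 to 5339) and high for Inhba (241, others 196 to 208). Untreated library 3 was high for Capg (17.8, others 5.85 to 8.70) and low for Hmox1 (1347, others 1476 to 1497). Untreated library 2 was high for Gsta1 (12.7, others 0.935 to 2.68). Palmitate library 5 was high for Creb3l3 (69.2, others 56.2 to 59.4) and palmitate library 2 for Ucp2 (830.0, others 666 to 711).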

How the results depend on the processing

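The 973 called genes were 675 to 1058 when each library was left out in turn, and 919 with a replicate block, 1165 with the term for libraries 1 to 3 against 4 and 5 that was chosen after seeing the data. The 567 genes called higher were 415 to 624 without 1 library and 352 when scaled by DESeq2 size factors. The 406 called lower were 248 to 434 without 1 library, the lowest being 248 without palmitate library 3 and 260.0 without palmitate library 2. Without untreated library 1, 721 genes were called, 703 of them among the 973. The cause of these moves was not tested. Whether the replicate numbers pair the samples is not settled, and with the block 541 genes were higher and 378 lower. Libraries 1 to 5 correlated best across treatments with numbers 1, 1, 1, 5 and 5.

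The difference between genotypes was tested only in the selected set of 2993 genes. There edgeR called 0 genes, DESeq2 6 and the replicate block 4. Leaving out each library gave 0 to 2, the 2 (Gm26917 and Ubb) without untreated knockout library 1. No named gene changed direction in any alternative run. Calls lost among the 125 named genes numbered 19 with DESeq2 size factors, 10 with TMM, 6 with the block and 3 to 17 without 1 library. Depth limits low genes such as Gsta1 and Capg, and only genes listed by the authors could be called.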
